A study of Mus musculus with 2 samples.

Results

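A set of 10 genes used as markers of adventitial, or universal, fibroblasts were described in single-cell RNA sequencing of mouse pancreas: Pi16, Dpp4, Cd55, Clec3b, Dpt, Anxa3, Penk, Efhd1, Gpx3 and Cygb. They are 10 of the 27998 genes listed for both libraries, were chosen by name, and all 10 were found. The cells came from Rosa26mTmG/+;Fabp4-Cre mice, in which any cell with a history of Fabp4 promoter activity carries membrane GFP in place of a red protein. The normal library, labelled PSC (pancreatic stellate cells), held GFP-positive cells of healthy pancreas from mice of 6 to 9 weeks. The tumour library, labelled CAF (cancer-associated fibroblasts), held GFP-positive, PDPN-positive cells of tumours that grew for 21 days after FC1245 cells, a mouse pancreatic ductal adenocarcinoma line, were implanted into the pancreas of mice aged 8 weeks. Fabp4 is also expressed by capillary endothelium, adipocytes and some macrophages, so the GFP label is not restricted to fibroblasts. Each group is 1 library, the number of mice in it is not given in the sources used here, and no test between groups was possible. Healthy pancreas was dissociated in pronase with collagenase P and DNase, and tumours in collagenase IV, dispase and DNase followed by trypsin, so group, digestion and the PDPN gate cannot be told apart.

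Universal fibroblasts line the adventitia of vessels and ducts in most organs and are known for Pi16 and Dpp4. A second universal type, marked by Col15a1, lies in the parenchyma around the basement membranes. Pi16-positive cells are widely described as a reservoir from which specialised and activated fibroblasts can arise. Of the 10 genes, Pi16 encodes a peptidase inhibitor of the CAP superfamily that is tethered to the membrane, Dpp4 a surface dipeptidyl peptidase that trims chemokines, incretins and neuropeptides, and Cd55 the decay-accelerating factor that breaks up complement convertases. Clec3b (tetranectin, a plasminogen-binding lectin), Dpt (dermatopontin, which binds decorin and collagen), Penk (the precursor of the enkephalin opioids) and Gpx3 (a selenium-dependent glutathione peroxidase of plasma) are secreted. Anxa3 is a calcium-dependent phospholipid-binding protein, Efhd1 a calcium-binding protein of the mitochondrion, and Cygb (cytoglobin) an intracellular globin known in the pancreas and liver as a stellate cell marker.

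The genes lie on GRCm38 chromosome 17, 29317680 to 29330593 (Pi16), chromosome 2, 62330073 to 62412231 (Dpp4), chromosome 1, 130439027 to 130462744 (Cd55), chromosome 9, 123150946 to 123157432 (Clec3b) and chromosome 1, 164796644 to 164824266 (Dpt). The others lie on chromosome 5, 96793339 to 96845966 (Anxa3), chromosome 4, 4133531 to 4138819 (Penk), chromosome 1, 87264363 to 87310839 (Efhd1), and chromosome 11, 54902453 to 54910377 (Gpx3) and 116645595 to 116654313 (Cygb). Only Clec3b and Gpx3 overlap no other annotated gene. Pi16, Dpp4, Cd55, Dpt, Penk, Efhd1 and Cygb each overlap 1 gene on the opposite strand, and Anxa3 overlaps the model Gm42603 on its own strand. Whether reads from such overlapping genes were counted with them was not tested. Cd55 has a close paralog next to it, Cd55b, at 130388537 to 130423009. In the fibroblast-like cells Cd55b had 10 normal UMIs (unique molecular identifiers, 1 per captured transcript) and 1 tumour UMI, so few UMIs were assigned to the copy.

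Dpp4, Cd55 and Efhd1 were among the genes highest in the adventitial-like cells of both libraries, with values given further on, and no annotated GENCODE exon falls in the 250 bases before their RefSeq start. These bases are shown for that reason, 5′ to 3′ on the strand of the gene, from RefSeq on GRCm38.p6. They are chr2:62412232-62412481 on the minus strand for Dpp4, chr1:130462745-130462994 on the minus strand for Cd55 and chr1:87264103-87264352 on the plus strand for Efhd1. Capitals mark matches on either strand to 5 motifs: the TATA box (letters TATAAA), the CCAAT box (named by its letters), the GC box (letters GGGCGG), the AP-1 motif (letters TGANTCA, with N for any base) and the motif of early B-cell factors (EBF), found in Dpp4 as TCCCCAGGGA, whose middle 2 bases were left free in the search. Overlapping matches run together.
Dpp4: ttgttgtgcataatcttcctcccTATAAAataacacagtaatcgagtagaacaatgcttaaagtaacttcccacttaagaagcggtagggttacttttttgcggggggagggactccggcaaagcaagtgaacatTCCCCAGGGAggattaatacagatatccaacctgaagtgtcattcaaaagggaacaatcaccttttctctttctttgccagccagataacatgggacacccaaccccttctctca
Cd55: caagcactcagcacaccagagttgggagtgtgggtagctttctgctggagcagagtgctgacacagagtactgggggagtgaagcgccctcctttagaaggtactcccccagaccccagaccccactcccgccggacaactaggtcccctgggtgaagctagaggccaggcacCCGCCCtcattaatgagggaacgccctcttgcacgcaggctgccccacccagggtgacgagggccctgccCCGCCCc
Efhd1: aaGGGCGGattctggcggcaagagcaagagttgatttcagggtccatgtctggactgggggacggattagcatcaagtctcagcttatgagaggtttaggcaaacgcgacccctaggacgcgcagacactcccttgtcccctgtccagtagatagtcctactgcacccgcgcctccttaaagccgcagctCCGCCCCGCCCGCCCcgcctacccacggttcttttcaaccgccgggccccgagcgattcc

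The Dpp4 window holds 1 EBF-type match, from 115 to 106 bases before the start, and 1 TATAAA, from 227 to 222 bases before it. An EBF-type match is in 0.779% of 32851 promoter windows of this length and a TATAAA in 12.4%. The Cd55 window holds 2 GC boxes and the Efhd1 window 4, of which 3 overlap between 60 and 46 bases before the start; a GC box is in 32.7% of windows. None of the 3 windows holds a CCAAT (33.8% of windows) or an AP-1 match (6.75%). GC content was 43.6% for Dpp4, 64% for Cd55 and 60.8% for Efhd1, against a median of 52.4%. The letters say nothing on whether a factor binds there. The bases just after the RefSeq start were found in 1 of 6 annotated GENCODE transcripts of Dpp4, 1 of 5 of Cd55 and 0 of 3 of Efhd1. The Efhd1 positions are thus counted from a start that matched no annotated transcript of the gene. RefSeq entries were matched for 6 of the 10 genes; the windows of Pi16, Dpt and Gpx3 overlap annotated exons and are not shown.

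The normal library had 5437 barcodes and 36675424 UMIs, the tumour library 2942 barcodes and 33285044 UMIs, and 4 barcode sequences occurred in both. After filtering and doublet removal, 4515 normal cells (median 7045 UMIs) and 2520 tumour cells (median 10156.5 UMIs) were left. Fibroblast-like cells, whose clusters were found to carry 12 of the 12 fibroblast markers tested, made up 1496 normal cells (33.1%) and 2204 tumour cells (87.5%). The rest of the normal library was mostly endothelial-like (1345 cells), macrophage-like or monocyte-like (682 cells) and a cluster led by Clec10a and Cd209d (714 cells) with macrophage markers that was left unnamed. CPM means UMIs of a gene per 1000000 UMIs of the summed cells. Ranges in parentheses are 95% intervals of counting error (exact Poisson, exact conditional binomial for folds, Clopper-Pearson for shares); they do not cover differences between mice. A gene was called 2-fold apart if its fold passed 2, the interval excluded 1 and either sum had at least 50 CPM.

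To see where among fibroblasts the genes lie, the fibroblast-like cells of each library were divided into subsets by their expression, with the 10 genes left out of that step. Each subset is called by a leading gene. A subset was called adventitial-like if a list of 26 other adventitial genes (Sema3c, Ly6c1, Ackr3, Cd248, Igfbp6, Mfap5 and others) stood at a median log2 fold of at least 1 over the library's other fibroblast-like cells. In the normal library this was the Dact2 subset of 279 cells (18.6%, 16.7 to 20.7%), where 25 of 26 list genes passed 2-fold over the other cells. Among tumour cells it was the Smpd3 subset of 271 cells (12.3%, 10.95 to 13.7%), with 18 of 25 measured list genes at least 2-fold higher. Expression of the list chose these subsets, and genes of the same cells are correlated, so differences of the 10 genes between subsets are a description and get no test. The subsets left out of both sums had 13 and 16 normal cells, with endothelial and mesothelial genes, and 11 tumour cells led by Mmp9.

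In the normal library, 5 of the 10 genes were concentrated in the adventitial-like cells. Pi16 was at 3547 CPM there against 206 CPM in the other subsets together, a ratio of 17.2 (16.4 to 18.0). Efhd1 was at 295 against 7.47 CPM, a ratio of 39.5 (31.3 to 50.6), the highest of the 10. Anxa3 was at 1580 against 115 CPM (13.7-fold), Cd55 at 1175 against 90.5 CPM (13.0-fold) and Dpp4 at 607.5 against 77.5 CPM (7.84-fold). The adventitial-like cells had 26.4% of the fibroblast-like UMIs but 93.6% of those of Efhd1, 86.0% of Pi16, 82.1% of Cd55, 81.8% of Anxa3 and 72.2% of Dpp4. The secreted lectin Clec3b and dermatopontin were higher there by less, with Clec3b at 2749 against 1482 CPM (1.85-fold) and Dpt at 2427 against 1322 CPM (1.84-fold), and both were abundant in every normal subset.

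The other 3 genes were not higher in the normal adventitial-like cells, and Gpx3 and Cygb went against the label. Penk was at 827 CPM in the adventitial-like and 857 CPM in the other cells, a ratio of 0.965 (0.926 to 1.01). Gpx3 was 6.51-fold lower in the adventitial-like cells, at 206 against 1340.4 CPM, and Cygb 9.62-fold lower, at 72.8 against 700.3 CPM. Gpx3 and Cygb were thus genes of the other fibroblasts in this tissue: the largest subset, led by Rcsd1 (569 cells, with Tenm4, Cxcl14 and Cspg4 among its leading genes), had 1332 CPM of Gpx3 and 835 CPM of Cygb but 5.13 CPM of Pi16 and 0.489 CPM of Efhd1. Between these ends stood the subset led by Hp (114 cells, with C4b, Trf and Fabp4), which had 1015 CPM of Pi16, 311 CPM of Cd55 and 370 CPM of Anxa3 together with the highest normal Gpx3 level, 1930 CPM. The Apod subset (361 cells) had 170 CPM of Pi16 and 122 CPM of Dpp4, and the Ppm1n subset (144 cells, with immediate early genes such as Egr2 and Ier2) 68.1 and 61.5 CPM.

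**Figure D1:**
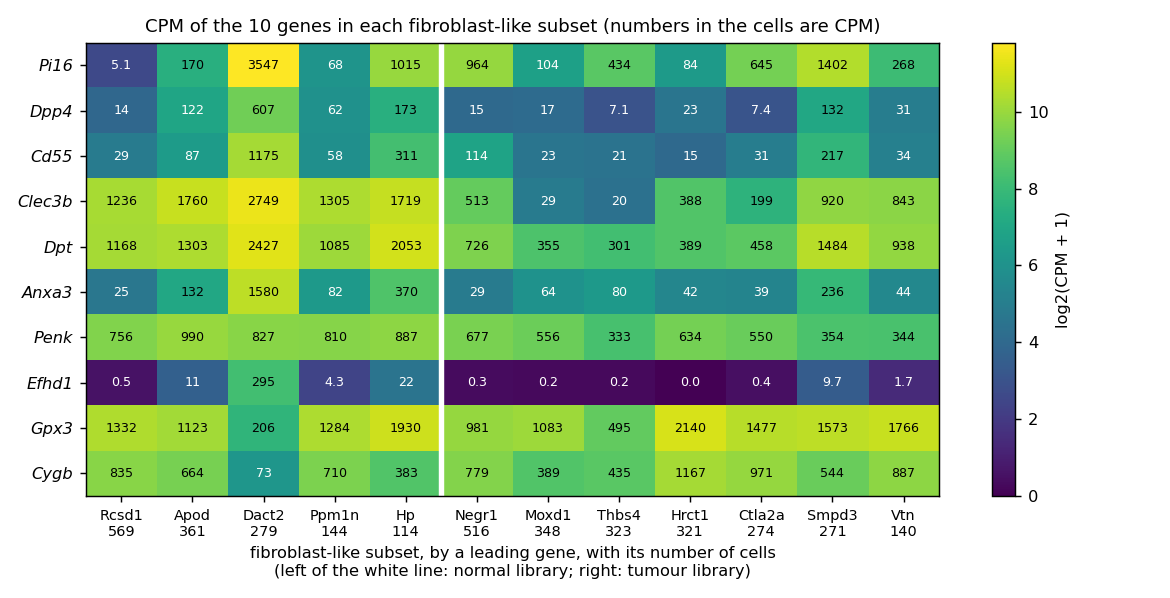
Colour gives log2(CPM + 1) and the printed number the CPM of each of the 10 genes (rows) in each fibroblast-like subset (columns, with cell numbers; normal subsets left of the white line, tumour subsets right). Pi16, Dpp4, Cd55, Anxa3 and Efhd1 peak in the normal Dact2 and tumour Smpd3 subsets, while Gpx3 and Cygb are lowest in the normal Dact2 subset and not in the tumour Smpd3 subset.

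In the tumour library the same 5 genes were again highest in the adventitial-like cells, at lower levels. Pi16 was at 1402 CPM there against 370 CPM in the other tumour subsets, a ratio of 3.79 (3.67 to 3.92). Dpp4 was at 131.7 against 14.9 CPM (8.82-fold), Cd55 at 217 against 38.2 CPM (5.68-fold), Anxa3 at 236 against 55.3 CPM (4.26-fold) and Efhd1 at 9.66 against 0.298 CPM (32.5-fold, 14.5 to 85.5, from 43 and 7 UMIs). Both Efhd1 levels were under the 20 CPM at which a gene counted as measured, and normal endothelial-like cells had 9.13 CPM of it. Clec3b and Dpt showed wider ratios here than in the normal pancreas, at 4.53-fold and 3.29-fold. Penk was again not higher, with 354 against 532 CPM, and the low levels of Gpx3 and Cygb seen in the normal adventitial-like cells were not seen here: Gpx3 was at 1573 against 1145 CPM and Cygb at 544 against 629 CPM.

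Among the other tumour subsets the genes separated from each other. The Negr1 subset (516 cells, with Chodl, Tppp3, Rspo3 and Cxcl10) had 964 CPM of Pi16 and 114 CPM of Cd55 but 15.1 CPM of Dpp4 and 29.5 CPM of Anxa3, the lowest Anxa3 level of the tumour subsets. It held 24.8% of the tumour fibroblast-like Pi16 UMIs, and the adventitial-like subset 41.7%. The Ctla2a subset (274 cells) had 645 CPM and the Thbs4 subset (323 cells) 434 CPM of Pi16, with 7.37 and 7.06 CPM of Dpp4. Clec3b was lowest in the Thbs4 subset, at 20.01 CPM, and in the myofibroblast-like Moxd1 subset (348 cells, with Inhba, Lrrc15 and Acta2), at 29.1 CPM, against 843 CPM in the Vtn subset (140 cells) and 388 CPM in the Hrct1 subset (321 cells). The Hrct1 subset carried the list of parenchymal Col15a1-type genes and had the lowest Pi16 (83.8 CPM) and the highest Gpx3 (2140 CPM) and Cygb (1167 CPM) of the 7 tumour subsets. The acinar enzyme genes Try5 and Ctrb1 were also among its leading genes, and their part in these values was not tested. Penk had the smallest ratio of highest to lowest subset of the 10, from 333 CPM (Thbs4) to 677 CPM (Negr1).

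Between the libraries, over all fibroblast-like cells, 7 of the 10 genes were called at least 2-fold lower in the tumour library and none higher. Of the 3633 genes that reached 50 CPM in 1 or both sums, 10.7% were called lower and 9.39% higher. Of the called genes 53.2% were lower, and 26.0% under TMM scaling, which moved the median of all genes up. The median log2 fold of the 10 was -1.94, against -0.25 for 6820 measured genes. The membrane-bound members were Pi16, with 1088 normal CPM (1071 to 1105) against 534 tumour CPM (525 to 542), Dpp4, with 222 against 33.5 CPM, and Cd55, with 377 against 66.6 CPM. The folds were 2.04 (1.99 to 2.08) lower for Pi16, 6.63 (6.16 to 7.14) for Dpp4 and 5.66 (5.37 to 5.97) for Cd55. Pi16, named first among these markers, thus had the smallest difference of the 7. Summed markers of other cell types differed too: from normal to tumour they went from 72.9 to 1116 CPM (ductal or tumour epithelial), 307 to 695 CPM (lymphatic endothelial), 805 to 103 CPM (acinar), 285 to 12.4 CPM (adipocyte), 246 to 58.3 CPM (endothelial), 165 to 14.5 CPM (macrophage) and 133 to 1.21 CPM (B cell). Of the 11 ductal or tumour epithelial markers 6 were lower in the tumour sum, although the 11 together were higher. The lymphatic endothelial list includes Pdpn, the gene of the tumour gate, which had 151 normal and 429 tumour CPM. The part of other cell types in these differences was not tested.

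Among the secreted products, Clec3b was 5.68-fold lower (5.55 to 5.82), with 1800 (1778 to 1822) normal against 317 tumour CPM, and Dpt 2.59-fold lower, at 1593 and 615 CPM. Penk was at 837 and 503 CPM, 1.66-fold lower and short of the call. Gpx3 was at 1018 and 1213 CPM, 1.19-fold higher. Of the intracellular genes, Efhd1 had the widest difference, 83.2 against 1.79 CPM, from 1192 and 50 UMIs (46.6-fold lower, 35.1 to 63.2). Anxa3 was at 509 and 84.0 CPM, 6.06-fold lower, and Cygb at 523 and 615 CPM, 1.18-fold higher.

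The Pi16 call was the only one of the 7 that did not hold under every alternative tried. With every cell given the same weight its log2 fold was -0.37, without the Moxd1 subset -0.54, against normal cells of female mice -0.66, under TMM scaling -0.69, under median ratio scaling -0.84 and with doublets kept -0.997, just short of 2-fold. It was -1.37 among cells with a Pdpn UMI, the gene of the tumour gate. Pdpn itself had 151 normal and 429 tumour CPM over all fibroblast-like cells, and Fabp4, whose promoter drives the Cre, 182 and 63.5 CPM. Within the adventitial-like cells Fabp4 went the opposite way, with 18.8 normal and 257 tumour CPM, and Pdpn had 202 and 622 CPM. The part of Pdpn and Fabp4 in the differences was not tested.

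**Figure D2:**
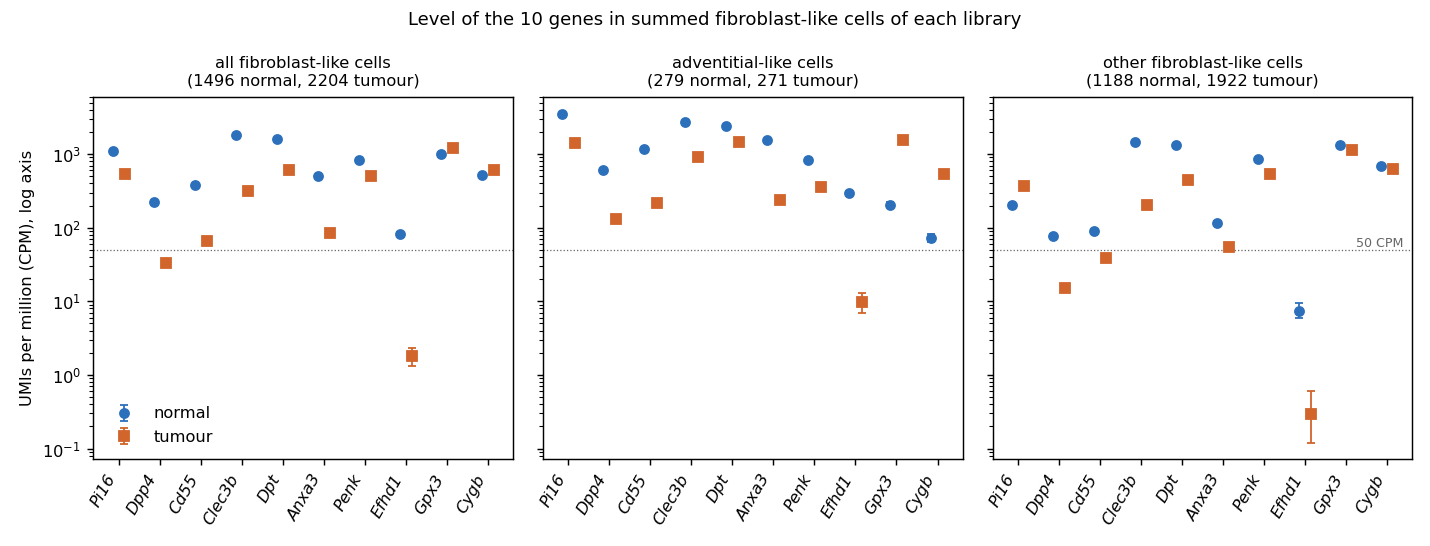
CPM (log axis) of each of the 10 genes in the normal (circles) and tumour (squares) library, summed over all fibroblast-like, adventitial-like and other fibroblast-like cells; bars are exact Poisson 95% intervals, mostly hidden by the points, and the dotted line is 50 CPM. Tumour points are below normal points for 8 genes in the left and middle panels, and for Gpx3 and Cygb above, by 7.64-fold and 7.48-fold in the middle panel.

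A difference over all fibroblast-like cells can hold a difference in the share of adventitial-like cells and one within them. The same comparison was therefore made within each. Whether the 2 adventitial-like sums hold the same kind of cell was not tested. When both libraries were clustered together, the cluster led by Efhd1, with Dact2 and Sema3c, held 402 normal and 15 tumour cells. The other fibroblast-like clusters also split by library, with 1060 normal and 28 tumour cells, 30 and 571, 4 and 548, 0 and 341, and 0 and 701. Such a split was thus not particular to the adventitial-like cells. Leading genes of the tumour Smpd3 subset included Sema3c, Opcml, Nov and Pcsk6, which also led the joint cluster with Efhd1. Of these, Sema3c and Opcml are on the list that chose the subset, and Nov was also a leading gene of the normal Dact2 subset. The Smpd3 subset shared Fabp4 as a leading gene with the normal Hp subset, which had 1930 CPM of Gpx3 and 383 CPM of Cygb. Within the adventitial-like cells, 7 genes were called lower (10.1% of 3430 genes tested) and 2 higher (12.2%), with a median log2 fold of -1.46 against -0.18 for all 6435 measured genes. Efhd1 was 30.6-fold lower (22.5 to 42.5), Anxa3 6.70-fold (1580 to 236 CPM), Cd55 5.41-fold (1175 to 217 CPM), Dpp4 4.61-fold (607.5 to 131.7 CPM), Clec3b 2.99-fold (2749 to 920 CPM), Pi16 2.53-fold (3547 to 1402 CPM) and Penk 2.34-fold (827 to 354 CPM). Dpt was 1.64-fold lower and not called. In the opposite direction stood Gpx3, with 206 normal CPM (192 to 221) and 1573 tumour CPM (1537 to 1611), 7.64-fold higher, and Cygb, with 72.8 CPM (64.4 to 81.9) and 544 CPM (523 to 566), 7.48-fold higher. The calls of 8 of these 9 genes held under all 10 alternatives; Penk's did not hold against female normal cells.

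Marker genes of other cell types also differed between these 2 sums. The 12 endothelial markers summed to 200.4 normal and 51.5 tumour CPM among adventitial-like cells, and the 13 macrophage markers to 80.7 and 6.52 CPM. The 13 acinar markers summed to 600.3 and 31.9 CPM, the 7 adipocyte markers to 0 and 76.0 CPM and the 12 pericyte or smooth muscle markers to 13.5 and 72.6 CPM. The 8 lymphatic endothelial markers summed to 459.8 and 761.7 CPM. Of these, Pdpn, the gene of the tumour gate, alone had 202 and 622 CPM, and the others together were lower in the tumour sum. Of the 12 endothelial markers none was at 0 in the fibroblast-like sum of either library, and of the macrophage markers Fcgr1 was at 0 in the tumour sum. Their part in the values of Anxa3, which endothelial and macrophage-like cells also carry, and of Cygb and Gpx3, which pericyte-like and lymphatic endothelial-like cells also carry, was not tested.

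In the other fibroblast-like cells (1188 normal, 1922 tumour), 5 of 9 genes with at least 50 CPM were called lower, against 11.9% of 3710 genes, and none higher, against 9.84%. Clec3b was 7.30-fold lower (1482 to 203 CPM), Dpp4 5.19-fold (77.5 to 14.9 CPM), Dpt 2.94-fold (1322 to 450.5 CPM), Cd55 2.37-fold (90.5 to 38.2 CPM) and Anxa3 2.08-fold (115 to 55.3 CPM). Pi16 was on the other side, with 206 normal CPM (198 to 215) and 370 tumour CPM (362 to 378), 1.79-fold higher. Its log2 fold was above 0 under all 10 alternatives, from 0.62 to 1.21, and past 2-fold in 3 of them (TMM and median ratio scaling and normal cells of female mice). Under TMM scaling only Clec3b, Dpp4 and Dpt remained at least 2-fold lower. Penk was at 857 and 532 CPM. Gpx3 was 1.17-fold lower, at 1340.4 and 1145 CPM, and Cygb 1.11-fold lower, at 700.3 and 629 CPM. Under TMM scaling both were above 0 (log2 0.14 and 0.21), and so was Gpx3 against female normal cells (0.20). Efhd1 had 76 UMIs in the normal and 7 in the tumour cells and was too low to be called. The Moxd1 subset is part of this tumour sum and held 33.1% of all tumour fibroblast-like UMIs, from 348 cells. It had 389 CPM of Cygb, 104 CPM of Pi16 and 29.1 CPM of Clec3b, below the tumour levels given here. Its Dpp4, Anxa3 and Penk, at 16.5, 64.0 and 556 CPM, were above them. The folds of these cells without the Moxd1 subset were not computed.

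**Figure D3:**
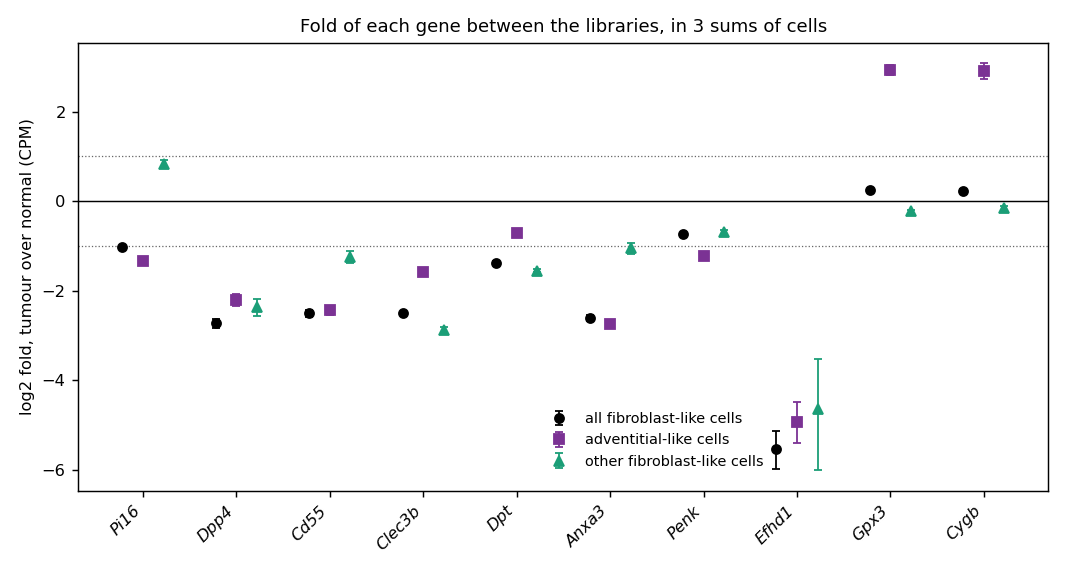
Log2 fold of tumour over normal CPM for each of the 10 genes in all (circles), adventitial-like (squares) and other (triangles) fibroblast-like cells, with 95% intervals of counting error; dotted lines mark 2-fold. Pi16 is below 0 in the first 2 and at 0.84 in the other cells, and Gpx3 and Cygb are at 2.93 and 2.90 in the adventitial-like cells.

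Cells in the normal library came from mice of both sexes. By Xist and 4 Y-linked genes, 485 of its fibroblast-like cells were from female and 776 from male mice, 20 had UMIs of both and 215 of neither. The tumour library had 2090 female, no male and 114 undetermined fibroblast-like cells, so sex differs between the groups. Adventitial-like cells were 14.2% (11.2 to 17.7%) of the female and 24.6% (21.6 to 27.8%) of the male normal cells, and 12.8% of the female tumour cells. The number of mice of each sex is not given in the sources used here, so each share may come from a single animal.

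Penk was the gene that differed most by sex among the 10 in the adventitial-like and in the other cells alike. It was at 481 CPM (461 to 502) in the female and 1029 CPM (1006 to 1051) in the male normal fibroblast-like cells. Within the adventitial-like cells it was at 376 and 970.6 CPM, and in the others at 517 and 1085 CPM. Against the female normal cells, the tumour level of 503 CPM was a fold of 1.05 (0.999 to 1.09), and within the adventitial-like cells the log2 fold was -0.09, so the Penk call there was lost. Pi16, Dpp4, Cd55, Anxa3 and Efhd1 were also higher in male normal cells when all fibroblast-like cells were summed (Pi16 844.5 and 1318 CPM), but within the adventitial-like cells the sexes were close (Pi16 3648 CPM female and 3484 CPM male, Dpp4 571 and 616 CPM, Cd55 1209 and 1184 CPM, Efhd1 318 and 293 CPM).

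Against female normal cells alone, 6 of 10 genes were called lower over all fibroblast-like cells (11.3% of 3704 genes) and none higher (9.4%), with Pi16 at 1.58-fold lower. Within the adventitial-like cells 6 were lower (10.4% of 3463 genes) and 2 higher (12.9%), with Gpx3 6.91-fold and Cygb 10.3-fold higher. In the other cells 4 were lower (13% of 3773 genes) and 1 higher (10.1%): Clec3b, Dpp4, Dpt and Cd55 were lower, Anxa3 was 1.49-fold lower and not called, and Pi16 was 2.07-fold higher (178 to 370 CPM). The 69 female normal adventitial-like cells had 891149 UMIs in all.

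**Figure D4:**
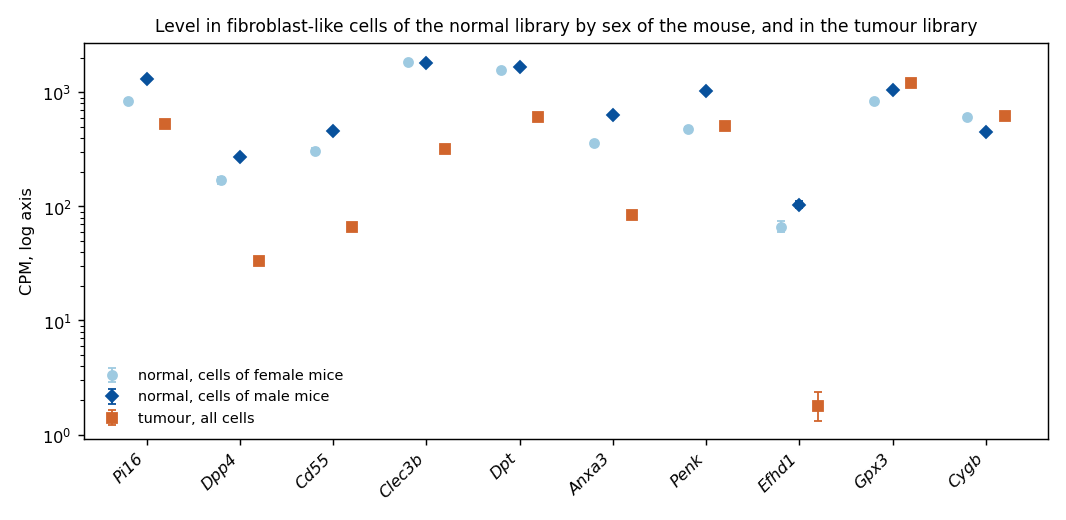
CPM (log axis) of each of the 10 genes in fibroblast-like cells of female (light circles) and male (dark diamonds) mice of the normal library and in all fibroblast-like cells of the tumour library (squares), with exact Poisson 95% intervals. Penk in the tumour cells, 503 CPM, is level with the female normal cells, 481 CPM, and below the male, 1029 CPM.

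Shares of cells with a UMI were compared after each cell was thinned to 5000 UMIs, which left out 149 of 1496 normal and 370 of 2204 tumour fibroblast-like cells. Of the normal adventitial-like cells, 98.9% had a Pi16 UMI, 100% Anxa3, 95.2% Cd55, 91.9% Dpp4 and 75.7% Efhd1, and in the tumour 78.9%, 56.3%, 48.7%, 37.9% and 5.36%. Among adventitial-like cells a Gpx3 UMI was found in 44.9% (38.8 to 51.0%) for normal and 96.6% (93.6 to 98.4%) for tumour, and Cygb in 21.7% (16.9 to 27.1%) and 85.1% (80.1 to 89.2%). Without thinning the Gpx3 shares were 64.5% and 99.6%, and the Cygb shares 41.6% and 97.0%.

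Pi16 behaved differently by share and by CPM over all fibroblast-like cells. After thinning, 33.8% of normal cells (31.3 to 36.4%) had a Pi16 UMI against 55.6% of tumour cells (53.3 to 57.9%), and before it 34.6% and 64.8%, while its CPM was lower in the tumour library. Cells with a UMI had a mean of 12.5 normal and 5.37 tumour Pi16 UMIs. The tenth of normal cells with most Pi16 held 66.8% of its UMIs, and in the tumour library 49.8%. Since the share goes against the CPM, no order of the libraries is read from it. Among tumour subsets the thinned Pi16 share ran from 15.4% (Hrct1) to 86.6% (Negr1), above the 78.9% of the adventitial-like subset; among normal subsets from 2.94% (Rcsd1) to 98.9%.

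Cells of other types gave the background for these shares, at 2000 UMIs per cell so that shallow cells could be kept. A Pi16 UMI was then found in 1.06% of normal endothelial-like and 0.747% of macrophage-like cells (median depths before thinning 3958 and 8909 UMIs), against 96.0% of the normal adventitial-like cells (277 cells used). Dpp4 was in 0% of 1132 endothelial-like and 0.299% of macrophage-like cells. In the tumour library Dpp4 was in 20% of the adventitial-like cells and 3.70% of the other fibroblast-like cells. It was in 4.76% of the 42 tumour B-like cells used. Before thinning, 17.8% of normal B-like cells (13 of 73) had a Dpp4 UMI, so B-like cells are not a background that lacks this gene. The 3.70% is therefore not ranked against them and is not read as expression by share. Efhd1 was in 2.22% of the tumour adventitial-like cells, level with the 2.21% of normal endothelial-like cells, and likewise is not read as expression by share.

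Several of the 10 genes also had UMIs in classes other than the fibroblast-like, some of them from few cells. Whether fibroblasts grouped with these classes gave such values was not tested. Anxa3 was at 440 CPM in normal endothelial-like cells (59.3% of thinned cells), in macrophage-like cells 220 (normal) and 239.5 CPM (tumour), and 421 CPM in the 42 ductal-like or tumour epithelial-like cells. Cygb was at 325 CPM in the 149 normal pericyte-like or smooth muscle-like cells, in 44.0% of them after thinning. Penk was there at 95.8 CPM and Gpx3 at 93.8 CPM, from 8 and 18 cells with a UMI before thinning. The 122 tumour lymphatic endothelial-like cells had 540.1 CPM of Gpx3, 236.5 CPM of Cygb and 210.2 CPM of Dpt. Before thinning, 59.0%, 35.2% and 18.0% of them had a UMI of these genes. Leading genes of this cluster were the lymphatic genes Ccl21a, Mmrn1, Reln and Prox1 and also the cycling genes Top2a and Mki67. Whether fibroblasts are among its cells was not tested. The 36 normal lymphatic endothelial-like cells had 297.5 CPM of Clec3b, 187 CPM of Dpt, 145 CPM of Penk and 126 CPM of Pi16. Cells with a UMI numbered 7 for Clec3b, 7 for Dpt, 6 for Penk and 3 for Pi16. Among B-like cells Cd55 had 145 normal and 164 tumour CPM. In the remaining classes, with acinar-like cells too few to be summed, the highest level of Pi16 was 42.3 CPM (the unnamed cluster led by Clec10a), that of Clec3b 73.8 CPM (pericyte-like) and that of Efhd1 9.13 CPM (endothelial-like). In the 24 tumour T-like or NK-like cells Penk was at 427 CPM, from 49 UMIs in 5 cells, of which 1 cell had 23 Penk UMIs and none of the collagen genes checked.

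How often the genes met in a single cell was counted at 5000 UMIs per cell. A normal adventitial-like cell had a median of 8 of the 10 genes, and 81.6% (76.5 to 86.0%) had at least 8. A tumour adventitial-like cell had a median of 7, and 28.7% (23.3 to 34.6%) had at least 8. The other fibroblast-like cells had a median of 5 in both libraries, and 8.68% of these normal cells and 1.34% of these tumour cells had at least 8. In the normal library 73.8% of cells with a Pi16 UMI also had Dpp4, against 16.1% of cells without, and 49.0% had Efhd1, against 1.01%. In the tumour library Dpp4 was in 14.0% (11.9 to 16.3%) of the cells with Pi16 and 5.53% (4.06 to 7.33%) of those without. Seen from Dpp4, Pi16 was in 70.0% of normal cells with a Dpp4 UMI and 76.1% of such tumour cells, against 13.7% and 53.3% of cells without one. Gpx3 and Pi16 were opposed in the normal library, where 63.1% of cells with Pi16 and 96.5% of those without had Gpx3, and close to level in the tumour library, at 91.5% and 91.2%.

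**Figure D5:**
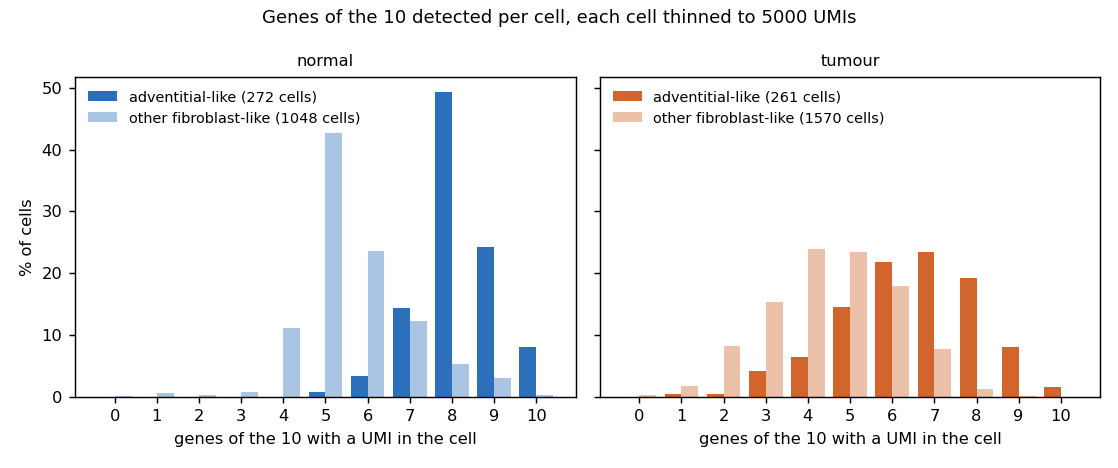
Percent of cells (y axis) by the number of the 10 genes with a UMI (x axis), each cell thinned to 5000 UMIs, in adventitial-like (dark bars) and other fibroblast-like cells (light bars) of the normal (left) and tumour (right) library. The 2 groups peak at 8 and 5 genes in the normal library and overlap more in the tumour library, with medians of 7 and 5.

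Across 22 units (cell classes and fibroblast subsets of either library with at least 50 cells), the genes were grouped by the likeness of their log2(CPM + 1). These units share libraries, and the subsets are parts of the fibroblast-like class, so the values are a description. Dpp4 and Cd55 were close to each other (Pearson r = 0.882), Clec3b to Dpt (0.926), and Penk, Gpx3 and Cygb to each other (0.923 to 0.94). Efhd1 was near Anxa3 (0.72) and Cd55 (0.706) but not Gpx3 (0.092) or Cygb (0.063). Of 6666 genes, those most like Efhd1 were Sema3c (0.938), Krtdap and Bmp7, and those most like Pi16 were Gfpt2 (0.914), Adgrd1 and Ugdh. Dpp4 had 1700019D03Rik, Cd55 and Opcml as its nearest genes, Cd55 had Dpp4, Smpd3 and 1700019D03Rik, and Anxa3 had Ptgs1, Clip1 and Lrrc8b. The nearest genes of the broad fibroblast members were Tnxb, Ogn and Efemp1 (Clec3b), Lrrc17, Ogn and Wnt5a (Dpt), Islr, Svep1 and Dcn (Penk), H6pd, Cyp1b1 and Ephb2 (Gpx3) and Lhfp, Pcolce and Col6a2 (Cygb).

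The adventitial list without the 10 genes, which also chose the subsets, was lower in the tumour sum for 14 of 26 genes (10.7% of all genes tested) and higher for 3 (9.39%), with a median log2 fold of -1.38. The lowest were Dact2 (23.3-fold lower, 25.8 to 1.11 CPM, under the level needed for a call) and Sema3c, a semaphorin (15.4-fold lower, 274 to 17.7 CPM), and the highest Has1, a hyaluronan synthase (107 to 478 CPM, 4.46-fold), and Tnfaip6, a hyaluronan-binding protein (208 to 1057 CPM, 5.09-fold). Within the adventitial-like cells 17 were lower (10.1% of all genes tested) and 3 higher (12.2%): Plac8, Has1 and Tnfaip6. Ebf2, an early B-cell factor, was at 315 and 95.7 CPM there, 3.29-fold lower. The parenchymal Col15a1-type list was lower for 7 of 13 measured genes and higher for 1 over all fibroblast-like cells, but within the adventitial-like cells higher for 4 (12.2% of all genes) and lower for 1 (10.1%). There Apod was at 22.0 and 465 CPM (21.2-fold higher), Fmo2 at 17.2 and 151 CPM (8.75-fold), Cxcl12 6.20-fold and Col15a1 6.18-fold higher (54.3 to 335 CPM), in the direction of Gpx3 and Cygb, while Lama2 was lower (455 to 161 CPM).

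Genes that work with single members gave mixed counts over all fibroblast-like cells, to be read against the 9.39% of all genes higher and 10.7% lower. Of 10 measured complement genes, the system Cd55 restrains, 4 were higher and 1 lower; C4b was at 83.2 and 534 CPM (6.42-fold higher), Cd59a at 7.96 and 49.9 CPM, Cr1l at 108 and 65.2 CPM and Vtn at 76.8 and 35.6 CPM. Within the adventitial-like cells 6 of 9 were higher (12.2% of all genes) and none lower (10.1%), with C3 at 1820.0 and 6269.6 CPM and C4b at 13.0 and 1253 CPM (96.6-fold). Of 12 Dpp4 relatives and substrates, 2 were higher (the chemokine Cxcl10, 43.6 to 303 CPM, and Igf1, 251 to 902 CPM) and 2 lower (Ccl11, 1161 to 351 CPM, and Fap, a surface peptidase related to Dpp4, 190 to 78.5 CPM). Of 5 measured opioid and peptide-processing genes, Cpz was higher (5.72 to 60.7 CPM) and 4 were not called. In the list of plasminogen-system and lectin genes, the receptor Plaur was called higher (5.51 to 80.3 CPM), and Plau (159 to 67.3 CPM) and Enpp2 (278 to 93.1 CPM) were called lower.

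Dermatopontin's matrix partners were higher for 4 of 11 (Tgfb1, Bgn, Col1a1 and Thbs1) and lower for 1 (decorin, Dcn, 14812 to 6041 CPM). In the list of 17 measured glutathione peroxidase, selenoprotein and other antioxidant genes only Sod2, a superoxide dismutase, was called (57.2 to 142 CPM, higher), and Gpx1, Gpx4, Gpx7 and Gpx8 were not. Within the adventitial-like cells, where Gpx3 was 7.64-fold higher, these 4 relatives were not called either (the highest, Gpx7, was at 72.3 and 100.0 CPM), while Sod2, Sod3 and Txnrd1 were called higher. Of 11 annexin and S100 genes, S100a4 was higher and S100a10 lower (1097 to 432 CPM), with Anxa1, Anxa2, Anxa4, Anxa5, Anxa6, Anxa7 and Anxa11 not called. Of 5 Pi16 relatives Pi15 was lower (78.2 to 38.4 CPM). None of 4 globin and cytochrome b5 genes and none of 10 mitochondrial calcium genes was called.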

How the data were processed

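Single-cell RNA libraries were made with droplet 3′ chemistry, 1 per group. The authors deposited UMI counts per gene and cell barcode, made with Cell Ranger 3.1.0 on mm10 per the submitters' processing notes; use of strand in counting is not given in the sources used here. Cells with at least 500 genes, 1000 UMIs and at most 10% mitochondrial UMIs were kept. Scrublet marked 2.19% of normal and 0.0777% of tumour cells; in the tumour library its call was not used and the cells with the highest scores were removed (53), against 101 in the normal library. Cells of both libraries were clustered with scanpy 1.11.5 (2000 variable genes without the 10 members, 30 components, 15 neighbours, Leiden resolution 0.5) and classes named from marker lists. Fibroblast-like cells of each library were clustered again alone, and subsets of at least 50 cells are described. Counts were summed per library and class or subset and divided by total UMIs. With 1 library per group no test across samples could be made; intervals cover counting error only, and UMI counts of 1 library are not biological replicates. A gene counted as measured when 1 or both sums reached 20 CPM. The calling rule was run on Poisson counts simulated from the summed profile of all barcodes of both libraries. Of 27998 genes run 3276 were tested, and it called 99% of those changed 4-fold, 0% of those changed 1.5-fold and 0% of unchanged genes. The last 2 values follow from the 2-fold cut at this depth. The simulation held no differences between mice, cells or digestions, so it gives no rate of false calls for these libraries.

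The members and the 12 gene lists (205 genes, 199 found) were chosen with earlier results of these data known. Genes named are the 10 members, the 2 highest and 2 lowest measured genes of each list and direct relatives or partners of a member, leading genes of clusters, the 3 genes most like each member, Fabp4 and Pdpn; further list genes were named after their values were seen. Alternatives were other filters, doublets kept, other resolutions and scalings (TMM from edgeR 4.0.16, used for scaling only), equal weights per cell, cells of 1 sex, cells with a Pdpn UMI and no myofibroblast-like subset. The alternatives for the adventitial-like and other cells, and leaving out groups under 50 cells, were chosen after seeing the data. The result of 1 list gene is not reported here.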

Additional observations from a re-analysis of the deposited data

How the results depend on the processing

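The median log2 fold of the 10 genes over all fibroblast-like cells, -1.94, was -1.60 under TMM scaling, -1.75 under median ratio scaling, -1.58 with every cell weighted the same, -2.07 among cells with a Pdpn UMI, -1.73 against normal cells of female mice and -1.54 without the myCAF-like subset. In the adventitial-like cells, -1.46 became -1.31 at resolution 1, -1.30 under both scalings and -1.56 against female cells. In the other cells, -1.06 became -1.25 at resolution 1, -0.69 under TMM, -0.85 under median ratio scaling, -0.58 against female and -1.29 against male cells. There TMM left 3 genes lower, and TMM, median ratio scaling and female cells each gave 1 higher. Without thinning, a tumour fibroblast-like cell had a median of 6 of the genes. The cause of these shifts was not tested. The scalings moved the median of all genes from -0.25 to 0.11 (TMM) and -0.05 (median ratio) over all fibroblast-like cells. The share of called genes that were lower went from 53.2% to 26.0% and 37.5%. In the adventitial-like cells it went from 45.2% to 33.2% and 33.3%, and in the others from 54.7% to 26.7% and 38.6%. Over all fibroblast-like cells Dpp4, Cd55, Clec3b, Dpt, Anxa3 and Efhd1 kept their side past 2-fold in 13 of 13 alternatives and Pi16 in 7. No value that was called changed sign. No paired analysis was possible because each group is 1 library. Depth limits values such as Efhd1 in the tumour (50 UMIs) and Cygb in the female normal adventitial-like cells (47 UMIs), and differences between mice were not measured.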
